A study of Mus musculus with 19 samples.

Results

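The comparison described here set kidneys of mice given L. casei Zhang against kidneys of mice given the other Lactobacillus of the study, with both groups gavaged for 4 weeks, then injured by ischemia-reperfusion and killed on day 5 after the injury. Its members were 9 of the 19 RNA-seq libraries of the series, 4 labelled IRLacz and 5 labelled IRLac. All mice were male C57BL/6, and the tissue was whole kidney. The remaining libraries were 5 of sham kidneys (sham) and 5 of kidneys injured without either bacterium (IR). They enter below to place the values and through the filter and the shared spread of the test. The IR libraries also enter a contrast with each treated group. The design text abbreviates L. casei Zhang as Lac.z and L. acidophilus as Lact, so IRLac was read by elimination as the L. acidophilus group, and it is called IRLac throughout. No gavage or vehicle is given for the sham and IR mice, and age is not given. The labels number the libraries without saying that each came from a separate mouse, so every p-value measures the spread between libraries.

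Ischemia followed by reperfusion kills or strips cells of the proximal tubule, the nephron segment that reabsorbs most of the filtrate and burns fatty acids to do so. In the days after the injury, surviving tubule cells lose their transport genes and divide, macrophages enter, and fibroblasts of the interstitium turn into contractile myofibroblasts that lay down collagen. Lactobacilli are bacteria of the gut and of fermented milk, given here as probiotics by mouth.

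The deposited values are FPKM (fragments per kilobase of transcript, scaled to the mapped fragments of each library), which allow levels of genes of unlike length to be set side by side; the read depth is not given. Of 19287 entries in the table, 13594 reached 1 FPKM in at least 4 of the 19 libraries and were tested. Of 46 listed proximal tubule genes, the defining markers of this tissue, none was at 0 in all 9 libraries, with a summed level of 10350 to 30090 FPKM in IRLac and 10800 to 37140 FPKM in IRLacz. In each group 1 library lay farther toward sham than the rest. On a line from the mean sham profile (0%) to the mean IR profile (100%), the IRLac replicates lay at 101, 93.5, 66.9, 100 and 95.3% and the IRLacz replicates at 45.9, 77.4, 86.9 and 97.5%. IRLac replicate 3 and IRLacz replicate 1 were thus the libraries nearest to sham in their groups, and results are given with all 9 libraries and without these 2, the sham-nearest libraries. The 2 were marked out by these same values. A p-value without them therefore shows how a result depends on them and is not independent support for it. The numbers of entries passing the test depended on them, as the plot of library positions and calls shows.

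**Figure D1:**
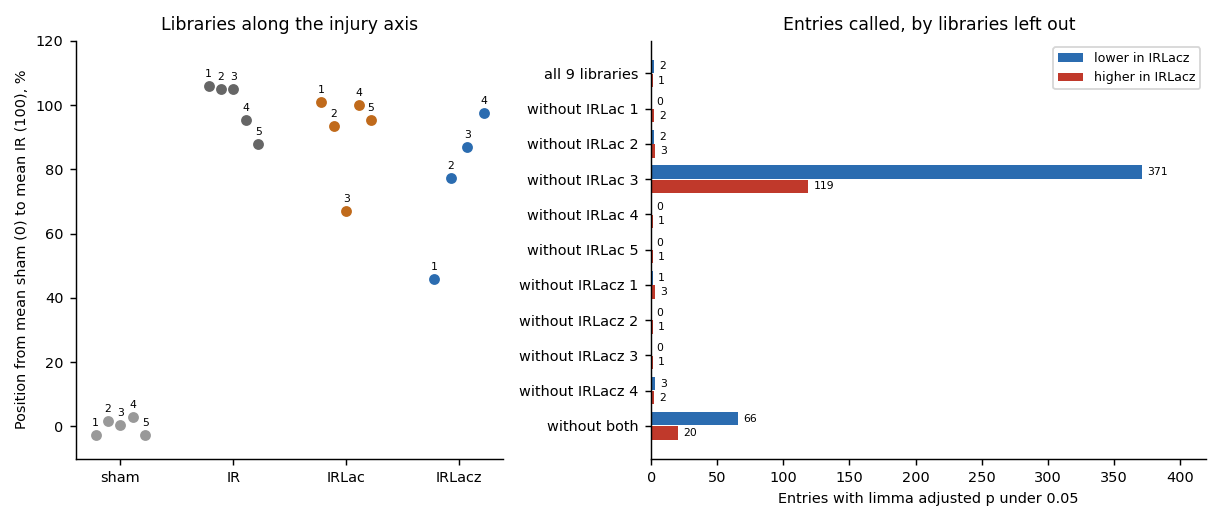
Left, position of each library (point, with its replicate number) on the line from the mean sham profile to the mean IR profile, in percent; right, number of entries with a limma adjusted p under 0.05 in the contrast of IRLacz with IRLac, by direction, with all 9 libraries and with 1 or 2 left out. IRLac replicate 3 lies at 66.9% and IRLacz replicate 1 at 45.9%, and leaving out the former raises the calls to 371 lower and 119 higher.

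Across all 9 libraries, 3 of 13594 entries (0.0221%) passed limma's test at an adjusted p under 0.05, 1 higher and 2 lower in IRLacz. Without IRLac replicate 3, 371 entries were called lower (2.73%) and 119 higher (0.875%). Without both sham-nearest libraries, 66 were called lower (0.486%) and 20 higher (0.147%), and 81 of these 86 were also among the 490 called without IRLac replicate 3 alone. These counts use a spread shared with the sham and IR libraries; with IRLac and IRLacz alone in the model, 1 entry was called from all 9 libraries and 2 without the sham-nearest libraries. At an unadjusted p under 0.05, 1228 entries (9.03%) were lower and 943 (6.94%) higher. The IRLacz and IRLac libraries did not overlap in 214 entries lower in IRLacz (1.57%) and in 186 higher (1.37%). The median difference over all tested entries was -0.01 on the log2(FPKM + 1) scale, on which every difference below is given as IRLacz minus IRLac.

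The entries that passed were Cav3, Pmp22 and a locus without a gene symbol. Cav3 encodes caveolin-3, the muscle form of the protein that shapes caveolae, and its values were 3.06, 2.04, 2.32, 2.58 and 2.31 FPKM in IRLac replicates 1 to 5 and 1.25, 1.07, 0.67 and 1.12 FPKM in IRLacz replicates 1 to 4. Every IRLacz library lay below every IRLac library, and Cav3 fell with a log2 difference of -0.77 ± 0.12 (SE, with an adjusted p of 0.0191 in limma). Its mean was 2.97 ± 0.547 FPKM (SD, n = 5) in IR and 0.048 ± 0.0502 FPKM (SD, n = 5) in sham. Pmp22 encodes a membrane protein best known from myelin and also made by fibroblasts and epithelia. Its values were 19.8, 16.1, 16, 19.2 and 17.9 FPKM in IRLac replicates 1 to 5 and 11.6, 11.8, 13.6 and 13.9 FPKM in IRLacz replicates 1 to 4. These groups did not overlap either, and Pmp22 fell with a log2 difference of -0.46 ± 0.08 (SE, with an adjusted p of 0.0481 in limma). Both kept their call without the 2 sham-nearest libraries, with differences of -0.84 (limma adjusted p = 0.0209) for Cav3 and -0.45 (limma adjusted p = 0.0305) for Pmp22. Neither was called when IRLac replicate 1, 4 or 5 or IRLacz replicate 2 or 3 was left out, where limma's adjusted p for the Cav3 log2 difference ran from 0.0526 to 0.0845 and that for the Pmp22 log2 difference from 0.0559 to 0.168. Pmp22 also missed the threshold without IRLacz replicate 1 (limma adjusted p = 0.108). The unnamed locus BGI_novel_G000424 was listed at 0 in all 5 IRLac libraries and at 1.44, 2.37, 2.17 and 2.5 FPKM in the IRLacz libraries. Its mean was 1.64 ± 0.481 FPKM in IR and 3.95 ± 1.68 FPKM in sham, so IRLac was the group without a value (limma adjusted p = 0.00439). What this locus encodes is not stated in the table.

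Genes of contractile and matrix-forming cells had the lowest list median in IRLacz. Of 41 listed fibroblast and matrix genes, all tested, 40 had a difference below 0, with a median of -0.53 against -0.01 over all entries, and 29 had an unadjusted p under 0.05 in that direction, beside 9.03% of all entries. None passed the adjusted test with all 9 libraries. Without IRLac replicate 3, 25 of the 41 were called lower (2.73% of all entries), and without both sham-nearest libraries 14 were (0.486% of all entries), among them Col1a2, Col3a1, Col5a1, Col5a2, Col6a3, Fn1, Tagln, Sparc, Timp1 and Tnc. The exception in direction was Pdgfra, a receptor of resident fibroblasts, with a difference of 0.08.

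Acta2 encodes smooth muscle actin, the standard mark of myofibroblasts. It stood at 146, 83.2, 49.7, 92.6 and 66.7 FPKM in IRLac replicates 1 to 5 and 37.1, 44.4, 36.4 and 47 FPKM in IRLacz replicates 1 to 4. The lowest IRLac library, replicate 3, was still above the highest IRLacz library, and the IRLacz mean was 53% lower. The log2 difference of -0.99 ± 0.21 (SE, with an adjusted p of 0.0753 in limma) did not pass, and it became -1.12 (limma adjusted p = 0.0301) without the 2 sham-nearest libraries. Myl9, a light chain of smooth muscle myosin, was at 70.5, 57.3, 63.9, 63.7 and 63.4 FPKM in IRLac replicates 1 to 5 and 44.3, 48, 42.3 and 53.6 FPKM in IRLacz replicates 1 to 4. The groups did not overlap, and IRLac replicate 3 was not set apart for this gene (log2 difference of -0.43, SE 0.08, adjusted p in limma 0.0753). Tpm2, a tropomyosin that winds along actin, read 37.7, 32.1, 21.7, 33.8 and 24.2 FPKM in IRLac replicates 1 to 5 and 14.5, 16.8, 18.4 and 21.3 FPKM in IRLacz replicates 1 to 4. It did not overlap between the groups and had a log2 difference of -0.71 ± 0.14 (SE, with an adjusted p of 0.0753 in limma).

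Among collagen genes, Col3a1 gave 315, 241, 186, 299.7 and 255 FPKM in IRLac replicates 1 to 5 and 119.7, 192, 144 and 175 FPKM in IRLacz replicates 1 to 4. IRLac replicate 3 lay just below IRLacz replicate 2, so the groups overlapped by that pair (log2 difference of -0.71, SE 0.15, adjusted p in limma 0.0753). Without the 2 sham-nearest libraries Col3a1 was lower by a called -0.70 (limma adjusted p = 0.0305). Col1a1 was 168 ± 52 FPKM (SD, n = 5) in IRLac and 97.9 ± 29.3 FPKM (SD, n = 4) in IRLacz, with a log2 difference of -0.77 ± 0.21 (SE, with an adjusted p of 0.116 in limma). Serpinh1, the chaperone that folds collagen in the endoplasmic reticulum, is named after its values were seen. Its levels were 304, 224, 182, 287 and 222 FPKM in IRLac replicates 1 to 5 and 105, 151, 157 and 170.2 FPKM in IRLacz replicates 1 to 4. No IRLacz library reached the lowest IRLac library, and the log2 difference of -0.74 ± 0.15 (SE, with an adjusted p of 0.0753 in limma) became -0.69 (limma adjusted p = 0.0305) without both sham-nearest libraries. Medag, a gene known from fat cell formation, was 2.64 ± 0.62 and 1.33 ± 0.0891 FPKM, and without both sham-nearest libraries it had the smallest adjusted p of all entries (limma adjusted p = 0.00505).

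In whole kidney, fewer cells of a type and less RNA per cell cannot be told apart. The summed level of the fibroblast and matrix list ran from 1674 to 3037 FPKM in IRLac and from 1134 to 1931 FPKM in IRLacz. The lowest of these sums belonged to IRLac replicate 3 and to IRLacz replicate 1.

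**Figure D2:**
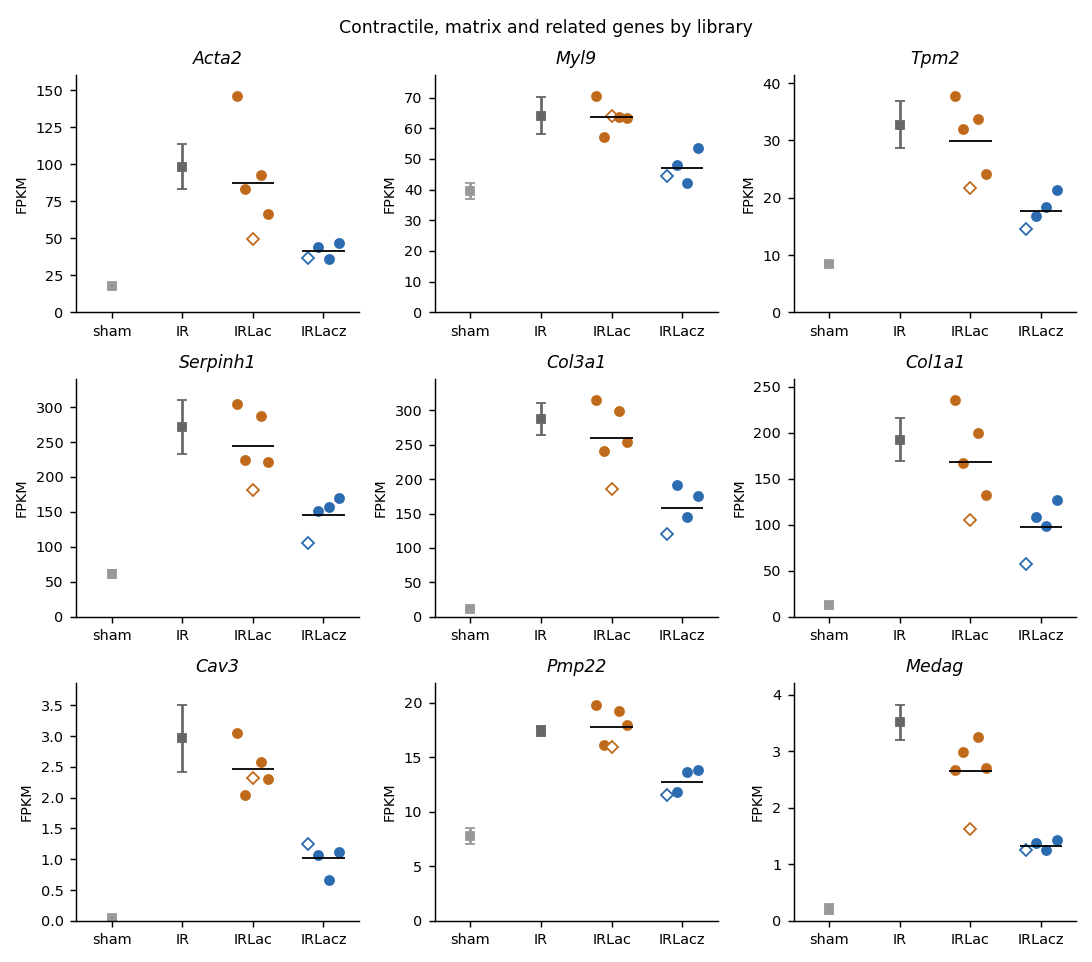
FPKM of 9 contractile, matrix and related genes. Circles are single IRLac and IRLacz libraries, open diamonds are IRLac replicate 3 and IRLacz replicate 1, black lines are group means, and grey squares with bars are the mean and SD of 5 sham and 5 IR libraries. For each gene except Col3a1 and Col1a1 the IRLacz libraries lie below all IRLac libraries.

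Chaperones of the endoplasmic reticulum made up the list with the most members, 9, whose groups did not overlap. This compartment folds secreted proteins, and when unfolded protein builds up, sensors in its membrane switch on chaperone genes through an element in their promoters. Of 29 listed genes of this response, 25 had a difference below 0, with a median of -0.20, and 16 were lower at an unadjusted p under 0.05 (9.03% of all entries). The 9 members without overlap of 29 stand beside 1.57% of all entries. None passed the adjusted test with all 9 libraries. Without IRLac replicate 3, 7 were called lower (2.73% of all entries), and without both sham-nearest libraries Hsp90b1 and Pdia6 were (0.486% of all entries). The list's median was -0.19 without IRLac replicate 3 and -0.17 without IRLacz replicate 1. IRLac replicate 1 had the highest mean of the list, at 5.49 on the log2(FPKM + 1) scale. The other IRLac libraries ran from 5.23 to 5.28, and the IRLacz libraries from 5.02 to 5.20. Without IRLac replicate 1, 0 of all tested entries were called lower, and the list's median without it is not given here.

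The element is known as ERSE and reads CCAAT, any 9 bases, then CCACG. It was searched for on both strands in the RefSeq promoters of build GRCm38.p6, after the values had been seen; a match includes the CCAAT box that was searched for on its own. It was present in 20 of 10534 promoters of tested entries (0.19%) and in 8 of the 26 listed genes that had a promoter in the table (30.8%). The promoters of 5 of the chaperones whose groups did not overlap are shown because each holds it, with the element in capitals. They are at chr2:34771840-34772139, plus strand (Hspa5), chr10:86705395-86705694, minus strand (Hsp90b1), chr8:84846882-84847181, minus strand (Calr), chr12:17266339-17266638, plus strand (Pdia6) and chr15:88819396-88819695, plus strand (Creld2), and each is printed 5′ to 3′ on the strand of its gene.
Hspa5: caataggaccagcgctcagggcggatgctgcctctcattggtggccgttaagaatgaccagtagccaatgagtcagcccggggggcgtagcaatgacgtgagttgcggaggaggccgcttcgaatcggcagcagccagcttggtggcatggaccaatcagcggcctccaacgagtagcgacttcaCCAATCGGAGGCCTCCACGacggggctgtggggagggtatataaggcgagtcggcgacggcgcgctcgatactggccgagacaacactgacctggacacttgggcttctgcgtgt
Hsp90b1: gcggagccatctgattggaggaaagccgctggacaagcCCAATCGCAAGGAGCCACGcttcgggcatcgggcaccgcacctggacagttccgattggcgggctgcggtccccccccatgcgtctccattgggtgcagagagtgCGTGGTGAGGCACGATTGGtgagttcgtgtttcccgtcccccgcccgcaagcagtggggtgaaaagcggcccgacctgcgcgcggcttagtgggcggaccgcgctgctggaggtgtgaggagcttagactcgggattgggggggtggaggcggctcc
Calr: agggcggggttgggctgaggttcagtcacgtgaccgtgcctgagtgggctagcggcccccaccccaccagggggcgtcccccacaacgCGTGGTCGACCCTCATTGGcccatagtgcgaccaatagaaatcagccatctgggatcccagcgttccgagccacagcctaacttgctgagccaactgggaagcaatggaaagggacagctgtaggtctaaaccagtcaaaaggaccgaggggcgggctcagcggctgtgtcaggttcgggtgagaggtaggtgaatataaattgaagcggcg
Pdia6: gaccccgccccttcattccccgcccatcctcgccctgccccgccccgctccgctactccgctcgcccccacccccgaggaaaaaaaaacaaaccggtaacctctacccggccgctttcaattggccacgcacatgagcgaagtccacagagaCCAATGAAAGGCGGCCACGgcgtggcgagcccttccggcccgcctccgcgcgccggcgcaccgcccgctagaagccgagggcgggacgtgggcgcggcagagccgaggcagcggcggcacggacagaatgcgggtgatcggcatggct
Creld2: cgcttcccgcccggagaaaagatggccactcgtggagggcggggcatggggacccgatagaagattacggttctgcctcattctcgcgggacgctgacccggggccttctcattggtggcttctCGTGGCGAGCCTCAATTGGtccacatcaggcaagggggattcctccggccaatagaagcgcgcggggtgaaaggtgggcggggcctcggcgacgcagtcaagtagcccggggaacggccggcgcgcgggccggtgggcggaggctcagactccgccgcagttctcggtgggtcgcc
Hsp90b1 carries 2 such elements and the other 4 carry 1 each. In Hspa5 the element ends 46 bases before the start of transcription, and in Calr 143 bases before it. The other listed genes with the element, Canx, Syvn1 and Dnajc3, overlapped between the groups, with differences of -0.16, -0.20 and -0.03. A match is a description of the letters and not a shown binding site.

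Hspa5 encodes BiP, the main chaperone of the compartment. It was measured at 304, 241, 249.5, 214 and 241 FPKM in IRLac replicates 1 to 5 and 179.6, 142, 186 and 139.9 FPKM in IRLacz replicates 1 to 4. Every IRLacz library was below the lowest IRLac library, which was replicate 4 and not the sham-nearest replicate 3. The IRLacz mean was 35.3% lower, with a log2 difference of -0.63 ± 0.15 (SE, with an adjusted p of 0.0922 in limma). Hsp90b1, the partner chaperone GRP94, had 254, 237, 212, 232 and 238 FPKM in IRLac replicates 1 to 5 and 189, 170.4, 187 and 173 FPKM in IRLacz replicates 1 to 4. Its groups did not overlap (log2 difference of -0.38, SE 0.09, adjusted p in limma 0.0913). Calr, a calcium-binding chaperone of glycoproteins, was at 564, 509, 523, 532 and 514 FPKM in IRLac replicates 1 to 5 and 413, 412, 474 and 384 FPKM in IRLacz replicates 1 to 4. IRLacz replicate 3 came nearest to IRLac, and the difference of -0.33 had an SE of 0.07.

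Pdia6 and Pdia4, which form disulfide bonds, had means of 169 ± 14.4 and 63.9 ± 4.36 FPKM in IRLac and of 132 ± 10 and 49.6 ± 2.48 FPKM in IRLacz. Creld2, Sdf2l1 and Manf, small proteins of the same response, differed by -0.56, -0.65 and -0.58. Hyou1, a large chaperone related to HSP70, differed by -0.35. For all of these the IRLacz values lay below the IRLac values, with limma adjusted p-values from 0.0753 (Calr) to 0.164 (Hyou1). Pdia4 and Sdf2l1 had a promoter in the table and no element within it. The stress-induced factor Ddit3 (difference -0.02), its target Trib3 (-0.03), the chaperone Dnajb9 (0.04) and the degradation factor Herpud1 (-0.03) were close to 0, and the factor Xbp1 was at -0.24. Members of the list thus ranged from -0.65 (Sdf2l1) to 0.10 (Ern1, a sensor of unfolded protein).

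Of the 20 entries with the element, 15 had a difference below 0 (51.8% of all entries), with a median of -0.17. At an unadjusted p under 0.05, 7 of the 20 were lower (9.03% of all entries). All 7 were members of the list, and among the 12 genes with the element outside it none reached that p. These 12 held all 5 of the entries with the element that were above 0, among them Acacb at 0.50. Derl3 and Hnrnpa3 were 2 of the others, at -0.20 and -0.16. The IR mean was above the sham mean for each of the 9 chaperones without overlap: Hspa5 was 236 ± 31.5 FPKM in sham and 312 ± 74 FPKM in IR, and Creld2 33.1 ± 4.41 and 41.1 ± 11.6 FPKM. For both genes the IRLacz mean was below the sham mean, a difference that was not tested.

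**Figure D3:**
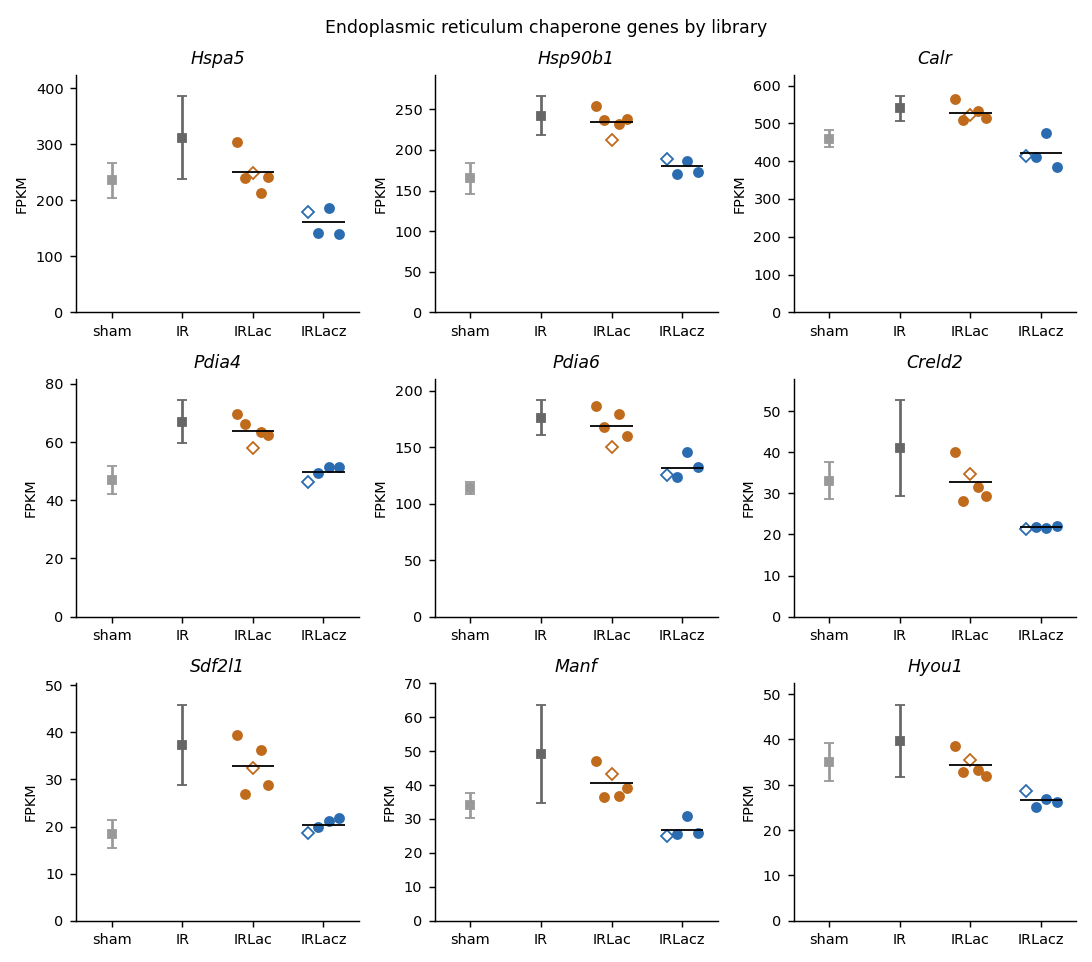
FPKM of 9 endoplasmic reticulum chaperone genes, with symbols as in the plot of contractile and matrix genes. All 4 IRLacz libraries lie below all 5 IRLac libraries for each gene, and IRLac replicate 3 (open diamond) is lowest in its group for Hsp90b1, Pdia4 and Pdia6 only.

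Macrophage genes were lower in IRLacz by their median, and the groups overlapped in each of them. Of 42 tested genes, 41 had a difference below 0, with a median of -0.42, which was -0.57 without IRLac replicate 3, -0.18 without IRLacz replicate 1 and -0.32 without both, and 20 were lower at an unadjusted p under 0.05 (9.03% of all entries). None passed with all 9 libraries, 13 were called lower without IRLac replicate 3 (2.73% of all entries), and 4 without both sham-nearest libraries (0.486% of all entries), namely Ms4a6d, Clec4d, Lilrb4a and Msr1. Ms4a6d, a membrane protein of monocytes and macrophages, was 23.5, 13.4, 7.42, 16.2 and 14.2 FPKM in IRLac replicates 1 to 5 and 4.48, 5.89, 5.2 and 9.38 FPKM in IRLacz replicates 1 to 4. IRLac replicate 3 lay among the IRLacz values, and the log2 difference of -1.10 ± 0.26 (SE, with an adjusted p of 0.0922 in limma) became -1.19 (limma adjusted p = 0.0413) without both sham-nearest libraries. Lyz2, the lysozyme of macrophages, had means of 619.6 ± 228.0 and 353.2 ± 112.0 FPKM, while Ccr2, the receptor of freshly arrived monocytes, had means of 12.25 ± 4.66 and 12.10 ± 4.54 FPKM. Their limma adjusted p-values were 0.169 and 0.982. The list's summed level ran from 2390 to 4630 FPKM in IRLac and from 1631 to 4067 FPKM in IRLacz, with the lowest values in IRLac replicate 3 and IRLacz replicate 1. Apoe alone had means of 1734 FPKM in IRLac and 1400 FPKM in IRLacz, so a large part of these sums came from this gene.

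Chemokines and cytokines were mostly below 0 as well. Of 49 tested inflammatory mediators, 41 were below 0, with a median of -0.27 that became -0.10 without IRLacz replicate 1 and -0.17 without both, and 15 were lower at an unadjusted p under 0.05 (9.03% of all entries). None passed with all 9 libraries, 8 were called lower without IRLac replicate 3 (2.73% of all entries) and 1 without both (0.486% of all entries). Ccl20, a chemokine that draws lymphocytes and dendritic cells, had values of 6.86, 3.98, 1.83, 2.75 and 3.65 FPKM in IRLac replicates 1 to 5 and 1, 1.38, 2.04 and 1.63 FPKM in IRLacz replicates 1 to 4 (limma adjusted p = 0.0922, and 0.0427 without both sham-nearest libraries). Ccl8, a monocyte chemokine, was at 16.1, 4.86, 4.71, 16.7 and 10.4 FPKM in IRLac replicates 1 to 5 and 1.93, 4.55, 4.75 and 4.99 FPKM in IRLacz replicates 1 to 4. IRLac replicates 2 and 3 were as low as IRLacz replicates 2 to 4, so the IRLac group was split (log2 difference of -1.08, SE 0.33, adjusted p in limma 0.139). Ccl2, which recruits monocytes, had a log2 difference of -0.68 ± 0.36 (SE, with an adjusted p of 0.359 in limma). Il1b and Tnf, the classical inflammatory cytokines, were at differences of 0.08 and -0.19, with limma adjusted p-values of 0.854 and 0.524. Without IRLacz replicate 1, the differences were -0.26 for Ccl2 and -0.06 for Tnf. The difference in Il1b turned to -0.02 without IRLac replicate 3.

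Genes of dividing cells were lower in IRLacz by sign in every case tested. All 46 listed cell cycle genes had a difference below 0, with a median of -0.39, and 32 were lower at an unadjusted p under 0.05, against 9.03% of all entries. None passed with all 9 libraries, 16 were called without IRLac replicate 3 (2.73% of all entries), and Foxm1 and Mki67 were called without both sham-nearest libraries (0.486% of all entries). Foxm1, a transcription factor that drives entry into mitosis, was at 5.65, 4, 2.56, 3.43 and 3.77 FPKM in IRLac replicates 1 to 5 and 1.39, 2.5, 2.64 and 2.03 FPKM in IRLacz replicates 1 to 4. IRLacz replicate 3 was just above IRLac replicate 3 (log2 difference of -0.63, SE 0.14, adjusted p in limma 0.0913). Plk1, a kinase of mitosis, was at 11.5, 7.13, 4.99, 7.93 and 6.5 FPKM in IRLac replicates 1 to 5 and 2.99, 4.35, 4.38 and 4.24 FPKM in IRLacz replicates 1 to 4 and did not overlap between the groups (log2 difference of -0.75, SE 0.19, adjusted p in limma 0.0927). Rrm2 and Tyms, which make the precursors of DNA, did not overlap either, with differences of -0.51 and -0.22. The 3 members without overlap of 46 stand beside 1.57% of all entries. The CCAAT box was in 75.0% of 36 cell cycle promoters and in 42.5% of all promoters, and the cell cycle homology region TTTGAA in 47.2% and 14.5%, searched on both strands. Among promoters of entries lower at an unadjusted p under 0.05 (961 of 1228 had one in the table) and of all tested entries (10534 had one), the shares were 42.0% and 42.5% for CCAAT, 15.1% and 14.5% for TTTGAA, 6.97% and 8.69% for GAAANNGAA, 8.32% and 6.44% for TGANTCA, 4.37% and 3.42% for TGACGTCA, 0.208% and 0.332% for TCAAGGTCA, 70.7% and 67.1% for GGGCGG, and 8.95% and 9.18% for TATAAA. These shares are descriptions and were not tested.

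The classical markers of tubular damage overlapped between the groups and did not pass the test. Havcr1, which encodes KIM-1, was at 546, 739, 211, 462 and 460.0 FPKM in IRLac replicates 1 to 5 and 138, 305, 495 and 553 FPKM in IRLacz replicates 1 to 4. The groups ran through one another, with low values in IRLac replicate 3 and IRLacz replicate 1 (log2 difference of -0.45, SE 0.33, adjusted p in limma 0.51). Lcn2, the secreted protein NGAL, had a log2 difference of -0.39 ± 0.32 (SE, with an adjusted p of 0.554 in limma). Without IRLacz replicate 1, these differences were -0.04 and -0.03. Of 39 listed tubular injury genes, 34 were below 0, with a median of -0.30, and none passed. The median was -0.44 without IRLac replicate 3, where 6 were called lower (2.73% of all entries), -0.06 without IRLacz replicate 1, and -0.22 without both, where 0 were called. Plaur, the urokinase receptor, was the member of smallest p, at 45.5, 29.7, 20.0, 36.9 and 22.2 FPKM in IRLac replicates 1 to 5 and 9.89, 14.4, 19.8 and 19.2 FPKM in IRLacz replicates 1 to 4. Its groups did not overlap, although IRLacz replicate 3 and IRLac replicate 3 nearly met (log2 difference of -0.91, SE 0.22, adjusted p in limma 0.0922). In this list Plaur was 1 such member of 39, beside 1.57% of all entries. Outside it, Ier3, an early stress response gene, did not overlap (log2 difference of -0.60, SE 0.15, adjusted p in limma 0.105). The same held for the survival gene Bcl2l1 (-0.37) and the heme-degrading enzyme Hmox1 (-0.62). They are named because they did not overlap, as did 1 of 22, 2 of 28 and 1 of 32 tested members of their lists.

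Genes of fatty acid oxidation were the list with the most members, 15, higher in IRLacz at an unadjusted p under 0.05. Of 44 listed genes, all tested, 42 had a difference above 0, with a median of 0.22, and the 15 stand beside 6.94% of all entries. In 3 of them, Decr2, Eci2 and Slc25a20, the groups did not overlap, beside 1.37% of all entries. None passed with all 9 libraries or without both sham-nearest libraries, and Decr2 and Eci2 were called higher without IRLac replicate 3 (0.875% of all entries). The median was 0.30 without IRLac replicate 3, 0.13 without IRLacz replicate 1 and 0.18 without both. The proximal tubule list stood beside it, with 38 of 46 genes above 0 and a median of 0.22, which became 0.08 without IRLacz replicate 1 and 0.13 without both. The part of tubule content in the fatty acid values was not tested.

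Decr2, a peroxisomal enzyme that reduces double bonds of unsaturated fatty acids, was at 17.6, 21.3, 20.5, 18.9 and 20.0 FPKM in IRLac replicates 1 to 5 and 26.1, 25.3, 26.6 and 24.7 FPKM in IRLacz replicates 1 to 4. All IRLacz values lay above all IRLac values, and the replicates of each group were close (log2 difference of 0.37, SE 0.07, adjusted p in limma 0.0753). Slc25a20, the carrier of acylcarnitines into mitochondria, was at 31.2, 30.5, 30.1, 29.5 and 31.3 FPKM in IRLac replicates 1 to 5 and 35.8, 35.7, 33.6 and 34.9 FPKM in IRLacz replicates 1 to 4. The step between the groups was small and free of overlap (log2 difference of 0.19, SE 0.06, adjusted p in limma 0.141). Eci2, an isomerase of unsaturated fatty acids, had a log2 difference of 0.29 ± 0.08 (SE, with an adjusted p of 0.119 in limma), with IRLac replicate 1 the lowest library. Ppargc1a, the coactivator that drives mitochondrial genes, was at 5.37, 7.18, 9.44, 7.05 and 9.99 FPKM in IRLac replicates 1 to 5 and 12.7, 10.5, 9.17 and 9.7 FPKM in IRLacz replicates 1 to 4. IRLac replicates 3 and 5 overlapped the IRLacz range (log2 difference of 0.40, SE 0.14, adjusted p in limma 0.19). Oxidative phosphorylation differed less: 45 of 47 genes were above 0 with a median of 0.10, none had an unadjusted p under 0.05, and the median was -0.01 without IRLacz replicate 1.

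Nampt, the enzyme that salvages nicotinamide into NAD, was at 17.1, 20.0, 22.6, 18.7 and 22 FPKM in IRLac replicates 1 to 5 and 29.3, 24, 26.7 and 23.9 FPKM in IRLacz replicates 1 to 4. The IRLacz values were all higher, and the IRLac mean lay below both IR (23.3 ± 3.61 FPKM) and sham (25.7 ± 1.29 FPKM). The log2 difference of 0.36 ± 0.10 (SE, with an adjusted p of 0.119 in limma) did not pass. Nnmt, which methylates and so spends nicotinamide, had a log2 difference of -0.42 ± 0.25 (SE, with an adjusted p of 0.414 in limma) that was -0.22 without IRLacz replicate 1, and Pnp, which splits nucleosides including that of nicotinamide, did not overlap and differed by -0.19. The 29 tested genes of NAD metabolism had a median of 0.06. Without overlap, 1 of the 29 was higher (1.37% of all entries) and 1 lower (1.57% of all entries), namely Nampt and Pnp. Hpd, an enzyme of tyrosine breakdown, was at 0.3, 6.38, 4.78, 1.43 and 1.77 FPKM in IRLac replicates 1 to 5 and 14.3, 11.4, 5.91 and 6.33 FPKM in IRLacz replicates 1 to 4. IRLac replicate 2 overlapped IRLacz replicates 3 and 4, and it had a log2 difference of 1.60 ± 0.40 (SE, with an adjusted p of 0.102 in limma). By limma, the adjusted p was 0.026 without IRLac replicate 3 and 0.0766 without both sham-nearest libraries.

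The 8 genes of smallest p that were higher in IRLacz had a limma adjusted p between 0.0648 and 0.0851, so none passed with all 9 libraries. Hsd17b2, which inactivates sex steroids, was at 2.82, 5.76, 4.98, 5 and 5.36 FPKM in IRLac replicates 1 to 5 and 8.11, 9.66, 8.23 and 7.1 FPKM in IRLacz replicates 1 to 4. The groups did not overlap, and the IRLac mean was below that of IR (7.21 ± 0.545 FPKM). Cirbp, a cold-inducible RNA-binding protein, was at 23.4, 31.1, 25.7, 29.8 and 28 FPKM in IRLac replicates 1 to 5 and 38.5, 50.8, 43.6 and 61 FPKM in IRLacz replicates 1 to 4. The lowest IRLacz value was above the highest IRLac value, and the means of IR (24.5 ± 5.72 FPKM) and sham (24.4 ± 2.98 FPKM) were nearer to IRLac (log2 difference of 0.78, SE 0.15, adjusted p in limma 0.0753). Fam241b, Znrf2, Dixdc1, Kctd2 and Rassf3 had differences of 0.40, 0.39, 0.61, 0.43 and 0.33, all without overlap. Without both sham-nearest libraries, Hsd17b2, Cirbp, Fam241b and Kctd2 were called, with limma adjusted p-values of 0.0413, 0.0385, 0.0305 and 0.0435.

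Among the 8 lower genes of smallest p, Elavl1, which stabilises messenger RNA, and Ptges3l, a relative of a prostaglandin synthase and HSP90 cochaperone, stood outside the groups above. Elavl1 was at 10.6, 9.91, 9.93, 11.3 and 10.5 FPKM in IRLac replicates 1 to 5 and 7.57, 7.12, 7.94 and 8.56 FPKM in IRLacz replicates 1 to 4. Its groups did not overlap (log2 difference of -0.38, SE 0.08, adjusted p in limma 0.0753), and those of Ptges3l did not either (log2 difference of -0.39, SE 0.08, adjusted p in limma 0.0753).

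**Figure D4:**
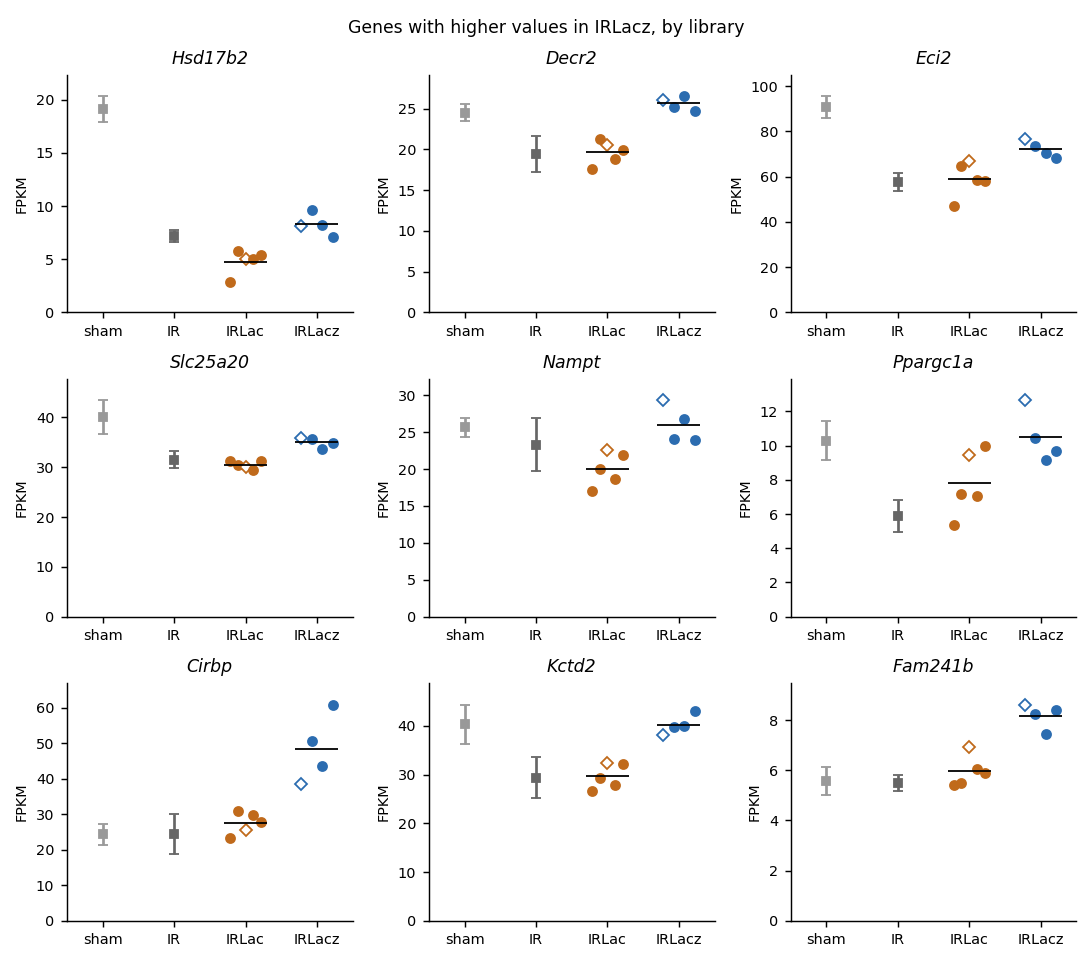
FPKM of 9 genes with higher mean values in IRLacz than in IRLac, with symbols as in the plot of contractile and matrix genes. The IRLacz libraries lie above all IRLac libraries for each gene except Ppargc1a.

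Genes of the distal nephron had positive medians, 0.31 for the thick limb and distal tubule (28 of 30 above 0) and 0.34 for the collecting duct (26 of 28), and none passed. Klhl3, a regulator of distal salt transport, had a log2 difference of 0.53 ± 0.19 (SE, with an adjusted p of 0.184 in limma). Umod, the uromodulin of the thick limb, was at 647, 927, 2176, 1430.1 and 1992 FPKM in IRLac replicates 1 to 5 and 2342, 1761, 1533 and 1470.1 FPKM in IRLacz replicates 1 to 4. The IRLac libraries spread widely and enclosed most of IRLacz (log2 difference of 0.43, SE 0.28, adjusted p in limma 0.456). Slc34a1, the phosphate transporter of the proximal tubule, had a log2 difference of 0.13 ± 0.20 (SE, with an adjusted p of 0.775 in limma), which turned to -0.06 without IRLacz replicate 1. Krt8, a keratin of the collecting duct and of injured tubule, went the other way (log2 difference of -0.48, SE 0.15, adjusted p in limma 0.142), with a difference of -0.31 without IRLacz replicate 1.

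The largest list median with all 9 libraries was that of the urothelium, the lining of the renal pelvis, at 0.81 (0.91 without both sham-nearest libraries), with 8 of 8 tested genes above 0. The summed level of its 10 markers was 8.68 to 22.55 FPKM in IRLac and 11.66 to 73.84 FPKM in IRLacz, beside 5.45 to 27.18 FPKM in sham. Upk2, a uroplakin, was at 0.34, 0.26, 1.3, 0.43 and 0.52 FPKM in IRLac replicates 1 to 5 and 1.98, 2.35, 0.67 and 4.04 FPKM in IRLacz replicates 1 to 4. IRLac replicate 3 exceeded IRLacz replicate 3 (log2 difference of 0.98, SE 0.29, adjusted p in limma 0.131). Of the 8 tested members, 6 were higher at an unadjusted p under 0.05 (6.94% of all entries). No member passed with all 9 libraries or without both sham-nearest libraries. Without IRLac replicate 3, 1 was called higher (0.875% of all entries), namely Upk2 (limma adjusted p = 0.0433). Red blood cell genes had a median of 0.80, which was 1.28 without IRLacz replicate 1 and 1.33 without both, above the urothelium in these sets. Of their 6 tested members, 1 was higher at an unadjusted p under 0.05 with all 9 libraries (6.94% of all entries) and 4 without both (1262 of 13594 entries). Their summed level was 29.71 to 50.08 FPKM in IRLac and 32.1 to 210.7 FPKM in IRLacz. Hba-a2, an alpha globin gene whose near-identical copy may share its reads, was at 8.84, 10.2, 8.49, 8.47 and 3.86 FPKM in IRLac replicates 1 to 5 and 5.92, 18.9, 47.6 and 23.6 FPKM in IRLacz replicates 1 to 4 (log2 difference of 1.22, SE 0.57, adjusted p in limma 0.301). Both lists thus varied more between IRLacz libraries than between IRLac libraries by the range of their sums. Their part in the other results was not tested.

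**Figure D5:**
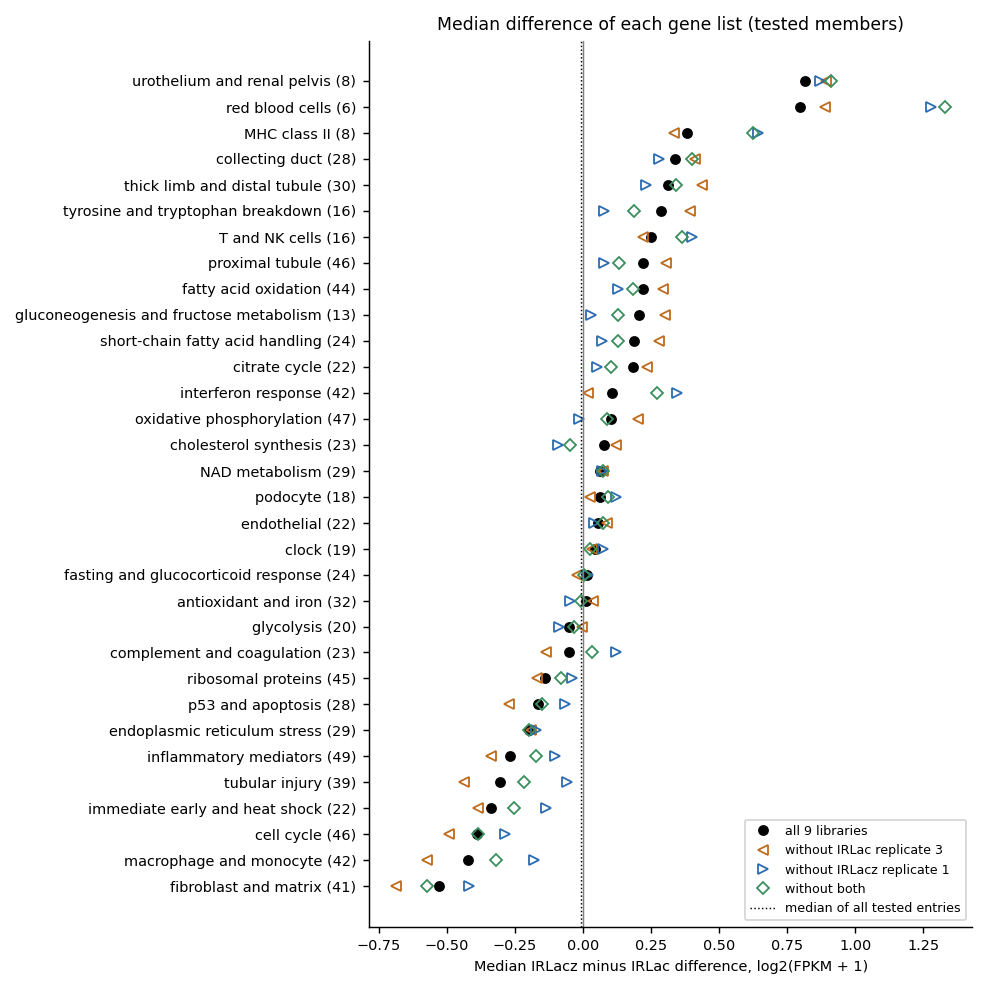
Median difference between IRLacz and IRLac on the log2(FPKM + 1) scale over the tested members of each gene list with at least 5 tested members (number in brackets), with all 9 libraries and without IRLac replicate 3, IRLacz replicate 1 or both. The lowest median belongs to fibroblast and matrix genes (-0.53) and runs from -0.69 to -0.42 over the 4 sets of libraries, whereas that of tubular injury genes runs from -0.44 to -0.06.

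Set beside the injured kidneys without bacteria, the 2 groups gave unlike counts over the 13594 tested entries. For IRLacz minus IR, 733 were called higher and 1076 lower, and for IRLac minus IR 0 higher and 1 lower. These counts and the differences from IR below come from all libraries only. IRLacz replicate 1, at 45.9% on the line from sham to IR, is included. Both contrasts use the same IR libraries, so the contrast of IRLacz with IRLac above, with its 3 calls, is the test of whether they differ. For Acta2 the differences from IR were -1.23 in IRLacz (limma adjusted p = 0.00487) and -0.24 in IRLac (limma adjusted p = 0.975). For Hspa5 they were -0.92 (limma adjusted p = 0.00487) and -0.30 (limma adjusted p = 0.877). Hsd17b2 differed from IR by 0.17 in IRLacz and by -0.53 in IRLac, so here the distance between the strains came with an IRLac value below IR, with neither passing.

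Of 14 genes chosen as markers of damage, scarring, inflammation and metabolism (Havcr1, Lcn2, Col1a1, Col3a1, Acta2, Ccl2, Ccl8, Il1b, Tnf, Ppargc1a, Umod, Slc34a1, Nnmt and Nampt), none passed limma's test. A two-sided exact permutation test over the 9 libraries, whose smallest possible p is 0.00794, gave an unadjusted p of 0.0159 for Acta2 and Nampt, 0.0238 for Col3a1 and 0.0397 for Col1a1. The other 10 were above 0.05.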

How the data were processed

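RNA was taken from whole kidneys and sequenced in 19 libraries. The authors deposited FPKM values per gene, made with HISAT and StringTie 1.0.4 on build mm9 per the submitters' processing notes; read depth is not given in the sources used here. The groups came from the sample titles. Values were analysed as log2(FPKM + 1), which understates changes of low genes. Entries with at least 1 FPKM in 4 or more libraries were tested with limma 3.58.1 (R 4.3.3) with a mean-variance trend, all 4 groups in 1 model and Benjamini-Hochberg adjustment over all tested entries. An adjusted p under 0.05 is a call. Scripts were tested on simulated data. The 37 gene lists (15 of their 973 genes were not found in the table) and the members were chosen with earlier results of these data known, and lists are described by counts and medians without a test. Named genes are 14 chosen markers, the 8 of smallest p in each direction, the member of smallest p in each of 12 lists, and list members whose groups did not overlap; Serpinh1, Cd2, Rbm3, Hspa8 and the list members given as further examples were chosen after their values were seen. Alternatives numbered 21, of which 1 was added after seeing the data. Promoters are RefSeq sequences of GRCm38.p6 matched by symbol, from 250 bases before to 50 bases after the start, for 10534 of 13594 tested entries; no coordinate was carried between builds. One gene that the rule names is not reported here.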

Additional observations from a re-analysis of the deposited data

Results flagged for a closer look

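In groups of 4 or 5 libraries, a value was looked at again where the gap to its nearest neighbour took up an unusually large share of the group's range; 7 of 126 groups of values met this, and chance alone is expected to give about 1 in 20. IRLacz replicate 1 was set apart as the lowest library for Ccl2 (0.855 of the range), Ccl8 (0.893) and Plk1 (0.912). IRLac replicate 3 was set apart as the library nearest to sham on the line from sham to IR (0.779). IRLac replicate 1 was the low library for Hsd17b2 (0.785) and IRLac replicate 5 for Hba-a2 (0.802), and IRLacz replicate 3 was the high library for Manf (0.835).

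The difference between IRLacz and IRLac is also the difference between their distances from IR, and it passed limma's test for 3 entries: Pmp22 (-0.456), Cav3 (-0.774) and BGI_novel_G000424 (1.63). For Cav3 the distances from IR were -0.97 in IRLacz and -0.19 in IRLac, and for Pmp22 -0.43 and 0.03.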

How the results depend on the processing

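The number of entries called, 3 with all libraries (1 higher, 2 lower), ran from 1 to 490 when 1 library was left out, with 1 to 119 higher and 0 to 371 lower; the cause was not tested. Without both IRLac replicate 3 and IRLacz replicate 1 it was 86 (20 higher, 66 lower), and 2 (2 higher, 0 lower) when sham and IR were also left out of that model, an alternative chosen after seeing the data. A pseudocount of 0.1 gave 1 (0 lower), no filter 5 (3 higher), TPM scaling 2 (1 lower), median-ratio scaling 10 (3 higher, 7 lower), IRLac and IRLacz alone in the model 1 (0 lower), and library weights, which count deviating libraries less, 167 (57 higher, 110 lower). A mean of at least 5 FPKM gave 0 (0 higher, 0 lower), with 1566 entries at an unadjusted p under 0.05 by limma and a smallest adjusted p of 0.0725. BGI_novel_G000424 was called in all 20 of the alternatives that tested it, Cav3 in 10 of 20 and Pmp22 in 9 of 21.

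With the replicate number as a block, 1 entry was called (0 lower). Same-numbered IRLac and IRLacz libraries had correlations of their deviations of -0.297, -0.143, -0.394 and 0.230. Without the same values for libraries of unlike number, these cannot decide whether the numbers pair the libraries.

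Direction turned for 2 named genes, Il1b (-0.0219 without IRLac replicate 3, range over single libraries left out -0.0219 to 0.204) and Slc34a1 (-0.0554 without IRLacz replicate 1, range -0.0554 to 0.344). The other named genes kept their direction under every alternative that gave them a value. No list median changed sign under TPM, median-ratio or quantile scaling. Precision is limited by 5 and 4 libraries, by unknown read depth, and by values near 1 FPKM, where the added 1 compresses differences.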

Other observations

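Some genes outside the groups above had patterns that set single groups apart. Cd2, a surface protein of T and NK cells, was listed at 0 in all 5 IRLac libraries, in IRLacz replicate 1 and in all sham libraries, and at 1.82, 2.12 and 1.99 FPKM in IRLacz replicates 2 to 4. In IR its median was 0 and its highest value 1.46 FPKM, so it entered the test mainly through these 3 IRLacz libraries, and no test result is read from it. Of 16 tested T and NK cell genes, 14 had a difference above 0, with a median of 0.25, which was 0.40 without IRLacz replicate 1. Hspa8, the constitutive HSP70 chaperone of the cytosol, was 1300 ± 240.0 FPKM in IRLac and 883.9 ± 116.0 FPKM in IRLacz without overlap (limma adjusted p = 0.119). Rbm3, which like Cirbp is induced by cold, overlapped, with means of 103.3 ± 15.3 and 118.3 ± 34.7 FPKM.

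Interferon response genes had a median of 0.11 between the strains, with 30 of 42 above 0. This median was 0.02 without IRLac replicate 3, 0.35 without IRLacz replicate 1 and 0.27 without both, where 41 of 42 were above 0. Gbp9, a guanylate-binding protein, was the 1 member of 42 higher at an unadjusted p under 0.05 (6.94% of all entries), and none passed. Beside IR, the list's median was -0.99 for IRLacz and -1.05 for IRLac, and both share the IR libraries. The IR libraries were themselves spread, with list means of 5.20, 4.28, 4.85, 5.17 and 3.41 on the log2(FPKM + 1) scale in replicates 1 to 5. IR replicate 5 lay within the range of the treated libraries. The 8 MHC class II genes, which present antigen to helper T cells, had a median of 0.38, which was 0.64 without IRLacz replicate 1 and 0.63 without both sham-nearest libraries. Ciita, their master regulator, was 2.19, 3.53, 2.86, 4.39 and 5.45 FPKM in IRLac and 2.58, 5.57, 6.82 and 6.98 FPKM in IRLacz, with overlap (limma adjusted p = 0.335).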
